A study of Mus musculus with 9 samples.

Results

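The genes described here build the postsynaptic side of the neuromuscular junction, the synapse between a motor nerve and a muscle fibre. They are the 5 subunits of the muscle acetylcholine receptor (Chrna1, Chrnb1, Chrnd, Chrne and Chrng), the kinase Musk with its ligand Agrn, its co-receptor Lrp4 and its adaptor Dok7, and the receptor anchor Rapsn. The 10 genes were chosen by name, with no threshold on their values but with earlier results of these data known. On the Affymetrix GeneChip used, several short probes read each transcript and are summarised as a probe set, and every probe set was taken whose annotation gave exactly 1 of these symbols. This gave 14 of the 45037 probe sets analysed.

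RNA came from the tibialis anterior, a fast muscle of the lower leg, of 9 male C57BL/6J mice. Each mouse had its own array, and there were 3 groups of 3 mice. The DEX + TE group received dexamethasone (DEX), a synthetic glucocorticoid that causes muscle wasting, and ate a diet with 2% turmeric extract (TE). The DEX group received the same injections on the diet without TE, and the control group received saline on that diet. DEX was injected into the peritoneum at 5 mg/kg each day for a week. All mice were 15 weeks old when the diets began, lived in single cages and ate diets based on AIN93. The labels call the turmeric treatment one given after DEX, whereas the growth protocol and the methods have the TE diet start 5 d before the injections. No mice given TE without DEX are analysed here, and the mice put on arrays were those with body and muscle weights near the average of their group, so the spread between arrays may be smaller than that between mice.

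At the junction, agrin from the nerve ending binds LRP4 on the fibre, LRP4 activates the kinase MuSK, and DOK7 inside the fibre keeps MuSK active. Rapsyn then packs acetylcholine receptors under the nerve ending, and nuclei below the synapse transcribe the receptor genes more strongly than nuclei elsewhere in the fibre. The adult receptor holds the epsilon subunit (Chrne), whereas the fetal receptor holds gamma (Chrng). In rodents, fibres that lose their nerve switch on Chrna1, Chrng and Musk again along their whole length, mainly through MyoD family factors that bind the E-box.

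The E-box and the N-box are the motifs known from that regulation, so the 250 bases before the transcription start are shown for 4 receptor subunits and Musk, from the RefSeq promoter table of GRCm38.p6. The windows lie at chr2:73580339-73580588 (minus strand) for Chrna1, chr11:69795938-69796187 (minus strand) for Chrnb1, chr11:70619195-70619444 (minus strand) for Chrne, chr1:87205561-87205810 (plus strand) for Chrng and chr4:58285712-58285961 (plus strand) for Musk. They are written 5′ to 3′ on the strand of the gene. Capitals mark each E-box (CANNTG, which reads the same on both strands) and the N-box (CCGGAA, searched on both strands), the element bound by ETS factors such as GABP.

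Chrna1: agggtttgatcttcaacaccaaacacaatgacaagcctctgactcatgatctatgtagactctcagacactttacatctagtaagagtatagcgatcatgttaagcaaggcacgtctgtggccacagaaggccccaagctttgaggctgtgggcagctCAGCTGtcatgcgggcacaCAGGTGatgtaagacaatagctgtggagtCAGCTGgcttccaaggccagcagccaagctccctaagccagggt
Chrnb1: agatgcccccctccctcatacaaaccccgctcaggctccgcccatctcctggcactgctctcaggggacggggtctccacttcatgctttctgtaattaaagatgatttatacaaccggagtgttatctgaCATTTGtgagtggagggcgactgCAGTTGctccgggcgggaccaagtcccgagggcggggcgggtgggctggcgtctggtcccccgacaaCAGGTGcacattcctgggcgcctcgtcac
Chrne: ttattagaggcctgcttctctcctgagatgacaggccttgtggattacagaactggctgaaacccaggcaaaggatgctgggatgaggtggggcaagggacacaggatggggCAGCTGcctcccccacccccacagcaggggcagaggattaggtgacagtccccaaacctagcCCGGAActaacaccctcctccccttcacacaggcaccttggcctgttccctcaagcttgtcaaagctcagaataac
Chrng: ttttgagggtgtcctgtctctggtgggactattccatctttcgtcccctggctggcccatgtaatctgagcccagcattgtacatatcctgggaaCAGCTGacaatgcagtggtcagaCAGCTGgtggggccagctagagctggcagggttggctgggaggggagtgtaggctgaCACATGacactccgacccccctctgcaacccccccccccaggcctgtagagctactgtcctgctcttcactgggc
Musk: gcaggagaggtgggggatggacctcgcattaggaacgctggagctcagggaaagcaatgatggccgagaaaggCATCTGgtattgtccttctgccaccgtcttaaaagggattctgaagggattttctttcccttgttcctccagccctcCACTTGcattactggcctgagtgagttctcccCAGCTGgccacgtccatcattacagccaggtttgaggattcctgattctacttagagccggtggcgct

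Chrna1, Chrnb1, Chrng and Musk each held 3 E-boxes, a number reached in 12.2% of the 32851 promoters of the table. Chrne held 1, while of the 2 windows each of Agrn and Dok7 1 held 1 E-box and the other held 0. At least 1 E-box was found in 66.2% of all promoters. The form CAGCTG, which is itself an E-box, occurred in 2 copies in Chrna1 and in Chrng, and 1.26% of all promoters held 2 or more. The copies of Chrna1 lay 92 to 87 and 44 to 39 bases before the start. The N-box was found in Chrne, 76 to 71 bases before the start, and in 12.0% of all promoters. The half-site AGAACA of the glucocorticoid receptor was not found in the windows of the 7 members listed in the table, and 16.1% of all promoters held it. A match is only a run of letters and was not tested for binding.

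The deposited signals were linear intensities. A probe set was tested where the mean log2 signal of at least 1 group reached that of a signal of 50, which 29269 probe sets did. Of the 14 member probe sets, 9 were tested, and they cover 8 genes. The probe set of Chrnd, the 3 of Chrng and 1 of the 2 of Agrn stayed below the limit. A probe set was called changed at an adjusted p under 0.05 where the log2 fold change was also 0.6 or more in either direction, in limma with Benjamini-Hochberg adjustment over all probe sets tested.

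No member probe set was called in any of the 3 comparisons. Chrna1 came nearest, with a signal that was higher on every DEX + TE array and every DEX array than on any control array. Lrp4 was lower on every DEX array than on any control array. No tested member separated the DEX + TE mice from the DEX mice. In bulk RNA of a whole muscle, a change in the number of junctions or cells and a change in RNA per cell cannot be told apart.

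**Figure D1:**
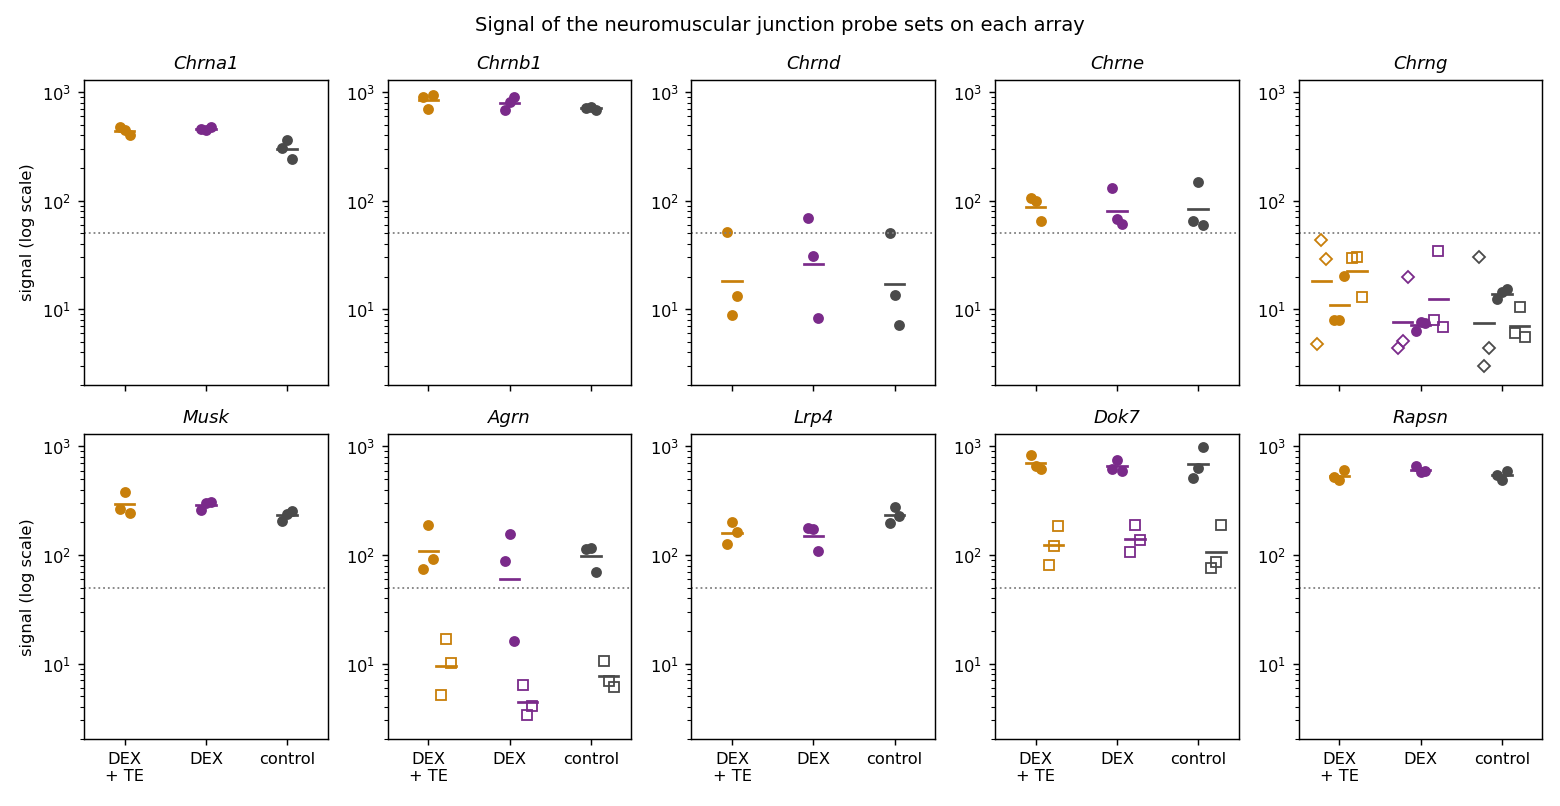
Signal of each member probe set on each array (log axis), with 1 panel per gene and the DEX + TE, DEX and control groups from left to right. Points and open symbols are arrays, with a different symbol for each probe set of a gene, bars are geometric means of 3 arrays, and the dotted line is a signal of 50. The Chrna1 points of both DEX groups lie above all control points, while those of Chrng lie below 50 throughout.

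The alpha subunit is present in every muscle acetylcholine receptor, fetal and adult, and carries most of the acetylcholine binding site. Chrna1 had signals of 478, 449 and 402 on the DEX + TE arrays, 456, 451 and 472 on the DEX arrays, and 308, 366 and 244 on the control arrays. The lowest array of either DEX group was thus above the highest control array, while the DEX + TE and DEX arrays overlapped. The mean signals were 443 ± 38.6, 460 ± 11.2 and 306 ± 60.6 (SD, n = 3 each). The log2 fold change of DEX over control was 0.61 (95% confidence interval 0.24 to 0.97), and limma gave an adjusted p of 0.153. For DEX + TE over control it was 0.55 (0.18 to 0.91), with an adjusted p of 0.207. The exact permutation test of either DEX group against control, two-sided, gave p = 0.1, the smallest value that 3 against 3 arrays can give.

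Between DEX + TE and DEX, Chrna1 differed by -0.06 on the log2 scale (95% confidence interval -0.42 to 0.31, adjusted p of 0.952 in limma). A contrast of both DEX groups together with control was added after these values were seen. It gave Chrna1 a log2 fold change of 0.58 (0.26 to 0.89) with an adjusted p of 0.106 in limma. The exact permutation test gave p = 0.0119, the smallest that 6 against 3 arrays allow. That exact p was set by the separation already seen, so it adds no support to it. In this contrast 10.9% of all probe sets tested had groups that did not overlap, and 0.929% were called. None of the 9 member probe sets was called, and Chrna1 alone of the 9 had groups that did not overlap. Chrna1 and Lrp4 had an unadjusted p under 0.05 in limma, but the share of all probe sets at such a p was not counted for this contrast.

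**Figure D2:**
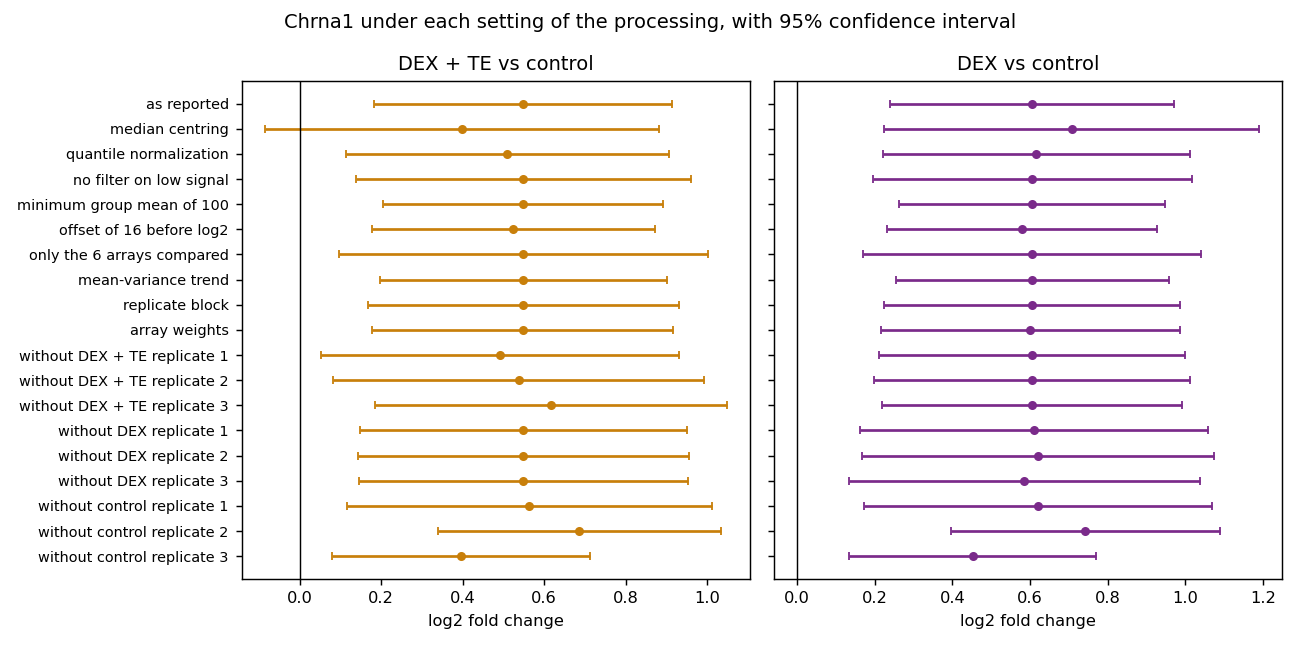
Log2 fold change of Chrna1 (points) with its 95% confidence interval (bars) as reported and under each other setting of the processing, for DEX + TE against control and for DEX against control. Every point lies above 0, and the interval reaches below 0 only for DEX + TE against control after median centring.

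The beta subunit links the receptor to rapsyn. Chrnb1 had signals of 899, 699 and 945 in DEX + TE mice, 683, 816 and 905 in DEX mice, and 714, 736 and 682 in control mice. The groups overlapped in all 3 comparisons, with 1 DEX + TE array and 1 DEX array inside the narrow control range. DEX against control gave a log2 fold change of 0.16 (95% confidence interval -0.20 to 0.53), DEX + TE against DEX 0.08 and DEX + TE against control 0.24, with adjusted p-values in limma of 0.670, 0.925 and 0.522.

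The epsilon subunit replaces gamma in the adult receptor. Chrne had signals of 106, 99.5 and 64.5 in DEX + TE mice, 130, 67.9 and 60.5 in DEX mice, and 64.9, 150 and 60.0 in control mice. The groups overlapped in all 3 comparisons. Arrays spread most in the control group, where 1 array was more than double the others. DEX against control differed by -0.04 on the log2 scale, with an interval of -1.07 to 0.98 that leaves room for a change of 1 in either direction. DEX + TE differed from DEX by 0.12 (-0.91 to 1.14) and from control by 0.07 (-0.95 to 1.10).

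The gamma subunit marks the fetal receptor. All 3 probe sets of Chrng lay under 50 on all 9 arrays, with highest signals of 20.2, 34.2 and 43.7, so no fold change is given. Below this limit the DEX + TE arrays did not overlap the DEX arrays in 1 of the 3 probe sets, with 7.99, 7.98 and 20.2 in DEX + TE mice against 6.32, 7.67 and 7.44 in DEX mice. In the same probe set the DEX arrays lay below the control arrays (12.3, 14.5 and 15.2). In another, the DEX + TE arrays (29.6, 30.4 and 12.8) lay above the control arrays (6.01, 10.5 and 5.56). Signals this low are not measured differences.

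The delta subunit belongs to both receptor forms. Chrnd had signals of 51.0, 8.89 and 13.1 in DEX + TE mice, 69.6, 31.2 and 8.37 in DEX mice, and 50.3, 13.7 and 7.13 in control mice. In each group replicate 1 alone passed 50, so Chrnd was not tested, and its groups overlapped.

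MuSK is the receptor tyrosine kinase through which the nerve organises the fibre surface. Musk had signals of 266, 385 and 245 in DEX + TE mice, 260, 298 and 305 in DEX mice, and 207, 237 and 253 in control mice. All DEX arrays stood above all control arrays, by a narrow gap, and 1 DEX + TE array fell within the control range. The log2 fold change was 0.31 for DEX against control (-0.12 to 0.74, adjusted p of 0.491 in limma), 0.34 for DEX + TE against control (-0.09 to 0.77, adjusted p of 0.460) and 0.03 for DEX + TE against DEX (-0.40 to 0.46, adjusted p of 0.982).

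LRP4, a member of the LDL receptor family, receives agrin and passes the signal to MuSK. Lrp4 had signals of 127, 200 and 162 in DEX + TE mice, 178, 174 and 108 in DEX mice, and 196, 279 and 231 in control mice. The highest DEX array was below the lowest control array, and 1 DEX + TE array lay just above that control array. The log2 fold change of DEX against control was -0.64 (-1.24 to -0.03), with an unadjusted p of 0.0408 and an adjusted p of 0.322 in limma. It was -0.54 for DEX + TE against control (-1.14 to 0.06, adjusted p of 0.408) and 0.10 for DEX + TE against DEX (-0.50 to 0.70, adjusted p of 0.948). For DEX against control, Lrp4 had an unadjusted p under 0.05 in 10 of 18 other settings, and without DEX replicate 3 the value was -0.40 (unadjusted p of 0.130 in limma).

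Agrin is a heparan sulfate proteoglycan made by motor neurons and, in a form less active on MuSK, by muscle itself. The tested probe set of Agrn had signals of 74.5, 187 and 92.8 in DEX + TE mice, 88.8, 155 and 16.1 in DEX mice, and 114, 117 and 70.3 in control mice. The DEX array at 16.1, replicate 3, was the only one of the 9 below 50. DEX against control differed by -0.69 on the log2 scale, with an interval of -2.56 to 1.18, and by 0.26 without that array. DEX + TE against DEX differed by 0.85 (-1.02 to 2.72), and by -0.11 without that array. DEX + TE differed from control by 0.15 (-1.72 to 2.02). The other Agrn probe set was below 50 on all arrays, with a highest signal of 16.7.

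DOK7 is the adaptor that binds MuSK from inside the fibre. The brighter probe set of Dok7 had signals of 829, 663 and 623 in DEX + TE mice, 621, 756 and 600 in DEX mice, and 507, 634 and 995 in control mice. The control group held both the lowest and the highest array, and the log2 fold changes were -0.06 for DEX against control, 0.09 for DEX + TE against DEX and 0.03 for DEX + TE against control. The second Dok7 probe set had signals of 81.0, 122 and 187 in DEX + TE mice, 106, 188 and 138 in DEX mice, and 76.4, 85.5 and 189 in control mice. Its log2 fold changes were 0.38, -0.19 and 0.19 in the same order, and the sign differed from that of the brighter probe set for DEX against control and for DEX + TE against DEX. All intervals of both probe sets included 0.

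Rapsyn anchors the receptors to the cytoskeleton and was the steadiest member. Rapsn had signals of 518, 492 and 612 in DEX + TE mice, 654, 579 and 597 in DEX mice, and 547, 489 and 591 in control mice. The groups overlapped in all 3 comparisons. Its log2 fold change was 0.17 for DEX against control (-0.12 to 0.47), -0.18 for DEX + TE against DEX (-0.47 to 0.11) and -0.01 for DEX + TE against control (-0.30 to 0.29). The adjusted p was 0.577, 0.774 and 0.982 in these comparisons, in limma.

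**Figure D3:**
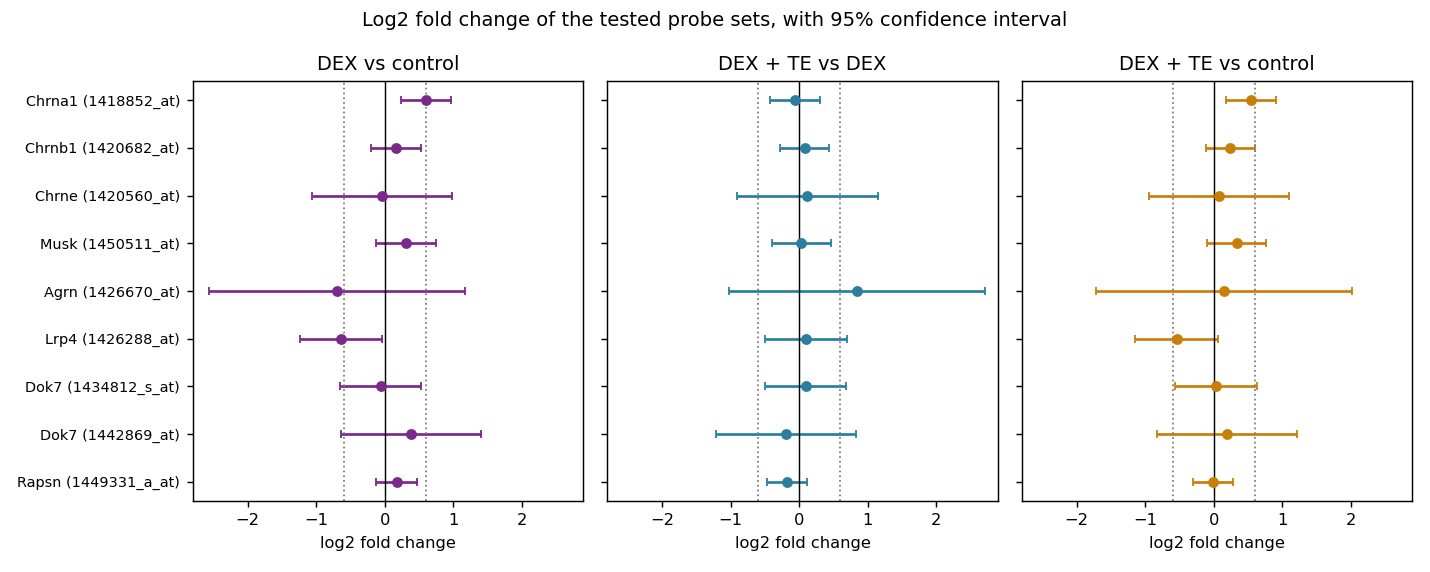
Log2 fold change (points) with its 95% confidence interval (bars) of the 9 tested member probe sets in each of the 3 comparisons, and dotted lines at -0.6 and 0.6. The intervals of Chrna1 lie above 0 in both comparisons with control, that of Lrp4 lies below 0 for DEX against control, and the Agrn intervals are the widest.

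For DEX against control, 0 of the 9 tested member probe sets were called by limma, while 0.502% of all probe sets tested were. An unadjusted p under 0.05 was found for 1 higher member, Chrna1, and 1 lower, Lrp4, against 6.1% higher and 8.33% lower of all probe sets. The groups did not overlap for 3 tested members, Chrna1, Musk and Lrp4, and for 21.2% of all probe sets. The median log2 fold change of the tested member probe sets was 0.16, against -0.03 over all probe sets.

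For DEX + TE against DEX, 0 of 9 were called by limma, against 0.0137% of all probe sets. No tested member had an unadjusted p under 0.05, against 6.2% higher and 1.56% lower of all probe sets, and none had groups apart, against 14.8% of all. The median of the members was 0.08 and that of all probe sets 0.05. The narrowest intervals of this difference were those of Rapsn, -0.47 to 0.11, Chrnb1, -0.28 to 0.44, Chrna1, -0.42 to 0.31, and Musk, -0.40 to 0.46, so a difference of 0.6 in either direction lay outside the interval for these 4 members as reported. After median centring the intervals were -0.72 to -0.15 for Rapsn, -0.79 to 0.17 for Chrna1 and -0.70 to 0.25 for Musk, which include -0.6, and only that of Chrnb1 excluded 0.6 in both directions under every setting run. Median centring also moved the median of all probe sets tested from 0.05 to -0.21 in this comparison.

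For DEX + TE against control, 0 of 9 were called by limma, against 0.379% of all probe sets. Among the tested members, Chrna1 alone had an unadjusted p under 0.05, against 7.95% higher and 5.84% lower of all probe sets, and alone had groups apart, against 22.7% of all. The median of the members was 0.15 and that of all probe sets 0.05. The comparisons share arrays, so the DEX + TE and DEX values against the same control mice are not independent of each other.

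Arrays of a group differed least for Rapsn, with a residual SD of 0.13 on the log2 scale, followed by Chrnb1 and Chrna1 at 0.18 each and Musk at 0.23. The SD was 0.33 and 0.34 for the brighter Dok7 probe set and Lrp4, 0.59 for Chrne and the second Dok7 probe set, and 1.09 for Agrn. The median over all probe sets tested was 0.29. Of these, 31.8% had a smaller SD than Chrna1 and 91.3% a smaller SD than Agrn.

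The genes whose signal followed a member most closely over the 9 arrays were found for the 3 members with the largest absolute DEX effect. For Chrna1 they were Prkaa1, a catalytic subunit of AMP-activated kinase (Pearson r of 0.97), Tspo, a protein of the outer mitochondrial membrane (0.97), and Dennd1b (0.97). For Lrp4 they were Tmem14a (0.95), the adhesion molecule Jam3 (0.94) and the transcription factor Klf9 (0.94). For Agrn they were the taurine transporter Slc6a6 (0.97), the netrin receptor Unc5b (0.96) and 2700097O09Rik (0.96), and the low DEX array enters each of these values. They are the highest values among all tested probe sets with 1 symbol, the arrays share groups and scaling, and no test was made.

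Other genes of the junction were taken from 7 lists of 70 genes, also chosen with earlier results of these data known. Of these genes 65 were on the array, and 58 were tested by the brightest probe set of the gene. By that probe set none was called by limma in any comparison. An unadjusted p under 0.05 was found for 8 higher and 6 lower genes for DEX against control, 2 higher and 0 lower for DEX + TE against DEX, and 7 higher and 5 lower for DEX + TE against control. Over all probe sets tested the shares were 6.1% higher and 8.33% lower, 6.2% and 1.56%, and 7.95% and 5.84% in these comparisons. The median log2 fold changes of the 58 genes were -0.03, 0.02 and 0.04. Counted over all 127 tested probe sets of these genes, 2 were called higher for DEX against control, 0 for DEX + TE against DEX and 2 for DEX + TE against control, and all calls belonged to Dtna. Of all probe sets tested, 0.502%, 0.0137% and 0.379% were called in these comparisons, in either direction.

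**Figure D4:**
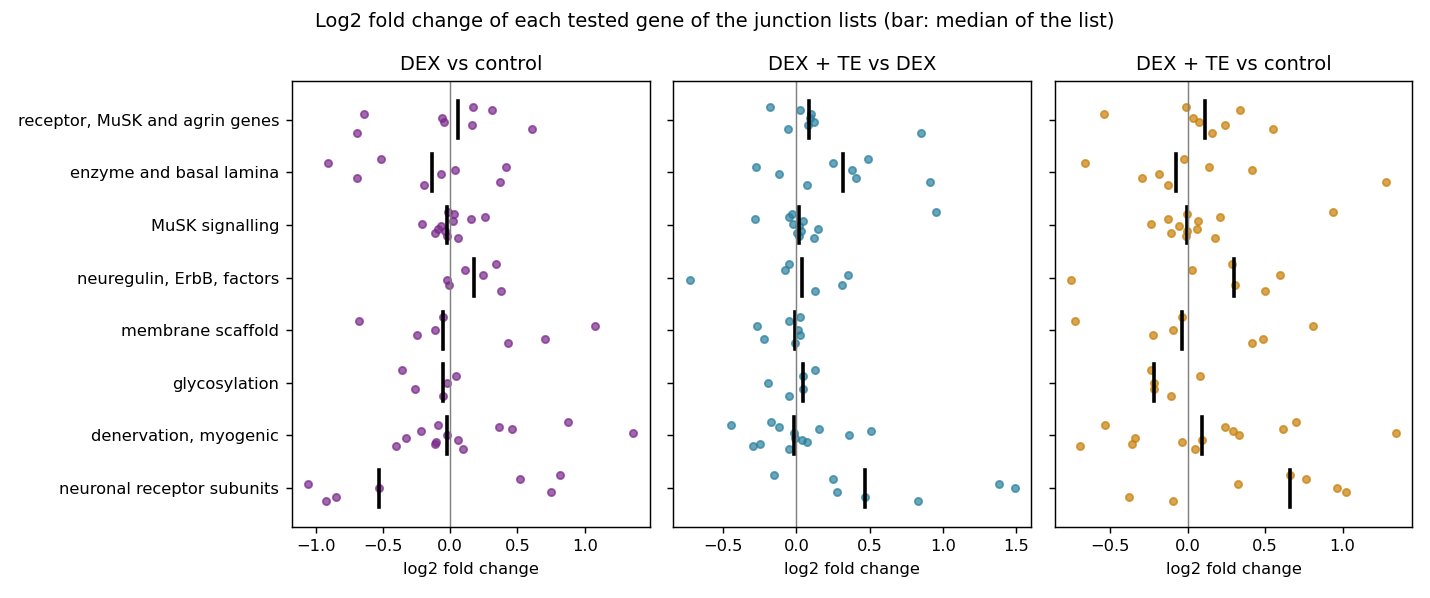
Log2 fold change of each tested gene (points, by its brightest probe set) of the member list and of the 7 other junction lists in the 3 comparisons, with the median of each list as a bar. The points of most lists lie on both sides of 0, and the median of the neuronal receptor subunits is -0.53 for DEX against control. For genes whose signal was below 50 on all arrays of a group the size of the value is not measured.

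Dtna encodes alpha-dystrobrevin, a protein of the dystrophin complex that keeps the receptor clusters of the adult junction stable and is also found along the whole fibre surface. The probe set 1456069_at had signals of 2168, 1988 and 2089 in DEX + TE mice, 2354, 2170 and 2356 in DEX mice, and 1081, 1216 and 1227 in control mice. Both DEX groups lay far above control on every array. Every DEX + TE array lay below every DEX array, but by a narrow gap (2168 against 2170). In that comparison the groups were apart in 2 of the 6 tested Dtna probe sets and in 14.8% of all probe sets tested. Dtna rose in this probe set by 0.97 on the log2 scale for DEX against control (95% confidence interval 0.74 to 1.20, adjusted p of 0.0134 in limma) and by 0.83 for DEX + TE against control (0.60 to 1.06, adjusted p of 0.0261). DEX + TE against DEX gave -0.14 (-0.37 to 0.09, adjusted p of 0.774).

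Of the 7 Dtna probe sets 6 were tested, and in all 6 both DEX groups lay above control with no overlap. The log2 fold changes were 0.57 to 0.97 for DEX against control and 0.48 to 1.17 for DEX + TE against control. The other calls were 1426066_a_at for DEX against control (0.88, adjusted p of 0.0307) and 1427588_a_at for DEX + TE against control (1.17, adjusted p of 0.0373). For DEX + TE against DEX the values were -0.24 to 0.23, with 1 of 6 above 0 and none called. The probe sets of a gene share its RNA and are not replicates.

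The call of 1456069_at for DEX against control held without each of the 9 arrays in turn. The call of 1426066_a_at was lost without each of them in turn, with adjusted p-values of up to 0.138 over all settings. The calls of 1456069_at and 1427588_a_at for DEX + TE against control held without DEX replicate 1 and were lost without each of the other 8 arrays, with adjusted p-values of up to 0.125 over all settings.

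Sntb1, beta1-syntrophin, is an adaptor that binds dystrobrevin and dystrophin. Its brightest probe set had signals of 331, 250 and 193 in DEX + TE mice, 438, 324 and 196 in DEX mice, and 169, 143 and 122 in control mice. Every array of both DEX groups was above every control array, and the DEX arrays spread widely. The log2 fold change was 1.08 for DEX against control (0.32 to 1.83, adjusted p of 0.199 in limma), -0.27 for DEX + TE against DEX (-1.02 to 0.49) and 0.81 for DEX + TE against control (0.06 to 1.57, adjusted p of 0.333). In the other 3 tested probe sets the groups were apart in the same way, and none of the 4 was called. A Dag1 probe set, of the dystroglycan that ties the complex to the basal lamina, had 0.52 for DEX against control (adjusted p of 0.0880 in limma). The brightest of the 4 Dag1 probe sets had 0.43 (adjusted p of 0.296), and the others had 0.16 and 0.13. Groups overlapped in the brightest and in these others, but not in the probe set at 0.52.

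**Figure D5:**
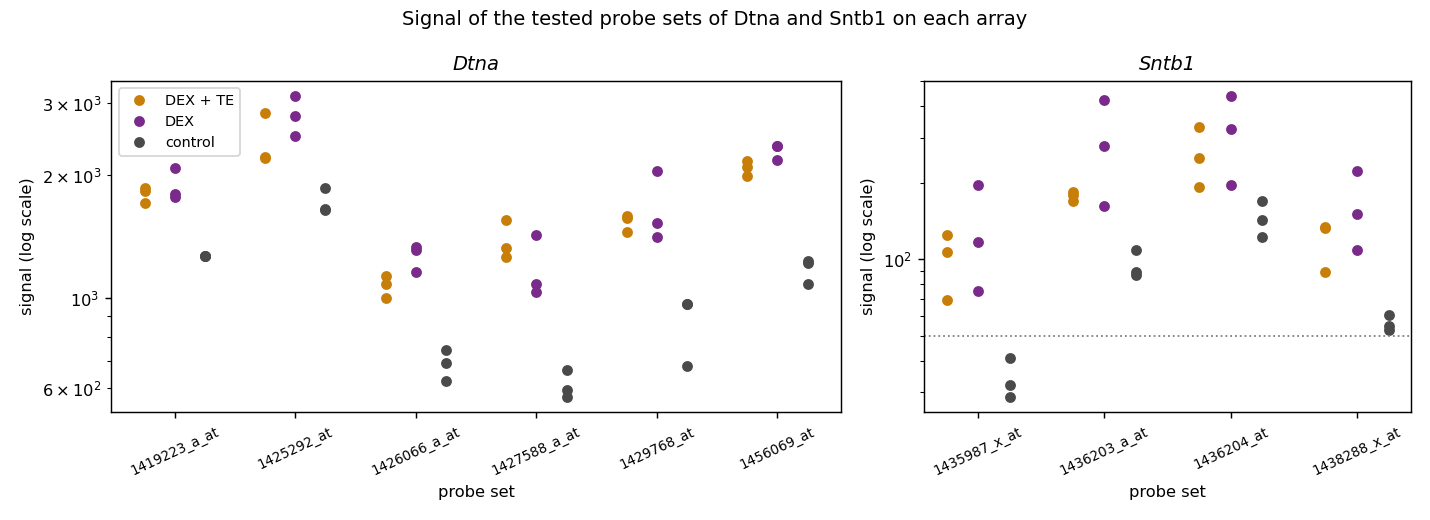
Signal of each tested probe set of Dtna (left) and Sntb1 (right) on each array (log axis), with DEX + TE, DEX and control side by side for each probe set and a dotted line at a signal of 50. In every probe set the 3 control arrays lie below all arrays of both DEX groups.

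The list of denervation response genes and myogenic factors had values on both sides of 0. It was not made for a single direction of change, so a count of signs is no measure of loss of the nerve. Of the 13 tested genes of this list 6 had a log2 fold change above 0 for DEX against control, 5 for DEX + TE against DEX and 8 for DEX + TE against control. The perinatal myosin Myh8 had signals of 223, 263 and 130 in DEX + TE mice, 189, 191 and 217 in DEX mice, and 81.4, 78.3 and 72.5 in control mice. Both DEX groups lay above control without overlap. Its log2 fold change was 1.36 for DEX against control and 1.35 for DEX + TE against control, with adjusted p-values of 0.0711 and 0.0885 in limma. Sln, the calcium pump inhibitor sarcolipin, had 0.87 and 0.70 in these comparisons (adjusted p of 0.0979 and 0.172). Myog, the myogenic factor that drives receptor genes after denervation, had 0.46 and 0.61 (adjusted p of 0.426 and 0.325). Gadd45a, a stress response gene, had -0.40 and -0.70 (adjusted p of 0.526 and 0.310).

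In the enzyme and basal lamina list, Ache, the acetylcholinesterase of the synaptic cleft, had log2 fold changes of -0.20 for DEX against control, 0.07 for DEX + TE against DEX and -0.13 for DEX + TE against control. Nid1, which links laminin to collagen, had -0.91 for DEX against control (adjusted p of 0.139 in limma) and Lamb2, the laminin chain of the synaptic basal lamina, 0.42 (adjusted p of 0.237). In the MuSK signalling list, 12 genes were tested and their median was -0.02, 0.02 and -0.01 in the 3 comparisons. The phosphatase Ptpn11 had 0.26 for DEX against control (adjusted p of 0.278). In the neuregulin and ErbB list, the ETS factor Etv5 had 0.60 for DEX + TE against control (adjusted p of 0.305), with 0.36 and 0.07 in its other probe sets. The ETS factor Etv4 had -0.75 (adjusted p of 0.352), but all its DEX + TE arrays were below 50, so the size of this value is not measured. The other Etv4 probe set was too low to be tested. The 5 glycosylation genes of congenital myasthenia had medians of -0.06, 0.04 and -0.22, and Alg2 had -0.26 for DEX against control (adjusted p of 0.292). Of the neuronal receptor subunits 7 of 10 on the array were tested, and for DEX against control Chrna4 had -0.85 (adjusted p of 0.143) and Chrnb4 0.81 (adjusted p of 0.255). The second tested Chrnb4 probe set had -0.81, but all its DEX arrays were below 50, so the size of this value is not measured.

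Markers of other cells were read beside these values, by the brightest probe set of each gene. All 10 skeletal muscle fibre markers were at 50 or more on all arrays. For DEX against control all 10 had a log2 fold change below 0, 9 of them with an unadjusted p under 0.05, their median was -0.44, and none was called by limma. Of all probe sets tested, 53.2% were below 0 and 8.33% were lower at such a p. The summed signal of the fibre markers was 547200 to 593200 on DEX + TE arrays, 444000 to 561100 on DEX arrays and 564300 to 793700 on control arrays. The 6 Schwann cell markers on the array were also at 50 or more throughout, with summed signals of 4025 to 6669, 3686 to 4771 and 4010 to 4615 in the same order of groups. Of the 7 motor neuron and axon markers, none was at 50 or more on all 3 arrays of any group, and their sums were 144 to 338, 147 to 226 and 175 to 269.

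The 6 fibroblast markers had a median log2 fold change of -1.04 for DEX against control, with 2 called lower, and 0.62 for DEX + TE against DEX, with 0 called and 4 higher at an unadjusted p under 0.05. Of all probe sets tested, 0.502% were called for DEX against control, and 6.2% were higher at such a p for DEX + TE against DEX. The summed signals of the fibroblast markers were 24240 to 26530, 16670 to 19380 and 25530 to 38850 in the DEX + TE, DEX and control groups. Both tested adipocyte markers were higher at an unadjusted p under 0.05 for DEX against control, with 0 called, and for DEX + TE against control, with 1 called. For DEX + TE against DEX 1 was higher at such a p, and 0 were called. Of all probe sets tested, 0.379% were called for DEX + TE against control. The sums of the adipocyte markers were 1284 to 2217, 820 to 978 and 318 to 463 in the DEX + TE, DEX and control groups. None of the endothelial, leukocyte or satellite cell markers was called by limma, with 2 at an unadjusted p under 0.05 for DEX against control, 2 for DEX + TE against DEX and 2 for DEX + TE against control. Over all probe sets tested the shares at such a p were 6.1% higher and 8.33% lower, 6.2% and 1.56%, and 7.95% and 5.84% in these comparisons. The part of any of these cell types in the values of Chrna1, Lrp4 or Dtna was not tested.

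The array medians of the signal were 84.7 to 95 on DEX + TE arrays, 71.3 to 77.7 on DEX arrays and 76.0 to 86.2 on control arrays, and 62.6% to 65.2%, 58.5% to 60.0% and 59.5% to 62.9% of the probe sets were at 50 or more. For beta-actin, the array's 3′ control probe set over its 5′ control probe set, a sign of RNA length, gave a log2 ratio that was 0.38 to 0.54, 0.10 to 0.43 and 0.25 to 0.33. The medians of the DEX + TE arrays lay above those of the DEX arrays without overlap, and their beta-actin ratios above those of the control arrays without overlap. The part of either in the members' values was not tested.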

How the data were processed

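The authors deposited 1 linear intensity per probe set and array, with the mean of each array at 500 after trimming 2% of probe sets at each end. These are not the Robust Multi-array Average values named in the methods, which are on a log2 scale, and the sources used here do not name the program that made them. After 64 control probe sets were left out, intensities were converted to log2 without an offset. Limma 3.58.1 in R 4.3.3 (lmFit, eBayes) took all 9 arrays into 1 fit of 3 group means, with Benjamini-Hochberg adjustment over 29269 probe sets. The thresholds are those of the methods, whose Rank Product test was not used because it permutes values over probe sets. Symbols come from the platform annotation (34945 probe sets with 1 symbol, 932 with several, 9160 with none). Exact permutation tests were two-sided. The number of arrays limits the precision. The members and gene lists were chosen with earlier results of these data known. From each list, up to 3 genes could be named, those called first and then those with the smallest p, and the choice to name Ache, Myog and Gadd45a was made with their values in view. The fit was tested on simulated data. The alternatives were median centring, quantile normalization, no filter, a minimum signal of 100, an offset of 16, fits to the 6 arrays compared, a mean-variance trend, a replicate block, array weights and leaving out each array. Figures and promoter searches used Python 3.11.15 with numpy 2.4.6, pandas 2.3.3 and matplotlib 3.10.9.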

Additional observations from a re-analysis of the deposited data

How the results depend on the processing

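No member was called under any of the 19 alternatives in any comparison, also without a minimum fold change. Chrna1 kept a log2 fold change of 0.45 to 0.74 for DEX against control (adjusted p of 0.0596 to 0.343), lowest without control replicate 3 and highest without control replicate 2, and of 0.40 to 0.69 for DEX + TE against control (adjusted p of 0.107 to 0.417). For both DEX groups together against control, added after the values were seen, it was 0.42 to 0.71 over 17 settings (adjusted p of 0.0341 to 0.257). The lowest adjusted p came with the mean-variance trend, at 0.58, short of the minimum fold change, so no member was called. Of 162 member values under alternatives in each comparison, the sign changed in 10 for DEX against control, 23 for DEX + TE against DEX and 19 for DEX + TE against control, in none with an unadjusted p under 0.05. Chrne was not tested at a minimum of 100. The Dtna probe set 1456069_at was called in 15 of 18 alternatives for DEX against control. The cause of the changes below was not tested.

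Over the whole array 147 probe sets were called for DEX against control, 4 for DEX + TE against DEX and 111 for DEX + TE against control. Without a filter the counts were 53, 0 and 44, with a minimum of 100 they were 341, 0 and 222, and with the 6 arrays compared 18, 0 and 55. A mean-variance trend gave 563 and 409 calls against control. The replicate block gave 41, 0 and 30 calls and called no member. The labels do not say that the numbers pair the mice. Deviations of arrays with the same number correlated at -0.02 to 0.05, which cannot show that no pairing exists. Array weights gave 13 for DEX + TE against DEX. Leaving out 1 array gave 51 to 101, 0 to 3 and 31 to 87 calls. Pathway genes called by their brightest probe set numbered 3 (Sln, Dtna and Myh8) for DEX against control with a minimum of 100. The trend gave 4, adding Nid1. Under these settings 341 and 563 probe sets were called over the whole array. For DEX + TE against control 1 pathway gene (Myh8) was called under each, beside 222 and 409 probe sets over the whole array. Without single arrays 0 to 1 pathway genes were called in both comparisons, the 1 being Myh8 without DEX + TE replicate 3.

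Median centring moved the median of all probe sets by 0.11 for DEX against control, -0.26 for DEX + TE against DEX and -0.16 for DEX + TE against control. The medians went from -0.03, 0.05 and 0.05 to 0.08, -0.21 and -0.11 in these comparisons, so they lay farther from 0 after it than before. Calls for DEX against control were 68 higher and 79 lower as reported, 68 and 42 after median centring and 81 and 69 after quantile normalization. For DEX + TE against control they were 65 and 46, 49 and 62, and 62 and 63. For DEX + TE against DEX they were 2 and 2, and 0 and 4 after either scaling.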
